A study of Homo sapiens with 4 samples.

Results

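PU.1, the C/EBP proteins, IRF8 and GFI1 are transcription factors that direct blood progenitors into the granulocyte and monocyte lineages. The 8 genes examined here were SPI1 (which encodes PU.1), CEBPA, CEBPB, CEBPD, CEBPE, CEBPG, IRF8 and GFI1, and they were chosen by name. Of these, 7 had a row in the deposited table of 28412 genes. IRF8, a partner of PU.1 in the monocyte and dendritic cell lineages, was not analysed here.

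RNA-seq had been performed on 4 libraries of the human leukemia line labelled NB4, a promyelocytic line. In the control group sh-NC (2 libraries), the labels give the genotype as control and the cells as untreated. In the group sh-LDB1 (2 libraries), the genotype is LDB1 knockdown. According to the methods of the study, knockdown used the lentiviral vector Plko.1, with sh-NC as its control, and the labels do not say which of the designed LDB1 shRNAs was sequenced or how long after infection the RNA was taken. LDB1, a LIM domain-binding protein, bridges LMO2, TAL1 and GATA1 on DNA, and the comparison asks which transcripts change when it is reduced. Nothing in the labels says that the replicates came from separate cultures, so the p-values measure the spread between these libraries, which may be technical.

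PU.1 is an ETS-family factor that opens the enhancers of myeloid genes, and its dose separates myeloid from erythroid fate. PU.1 and GATA1, the main erythroid factor, are known to bind and oppose each other. The C/EBP proteins are basic leucine zipper factors that bind DNA as dimers. C/EBPα is needed to enter the granulocyte lineage, C/EBPε acts in late granulocytes, and C/EBPβ and C/EBPδ are induced in stress and inflammation. C/EBPγ lacks a classical activation domain and can dampen the activity of its dimer partners. GFI1 is a zinc finger repressor of monocyte genes in granulocyte precursors, and its paralogue GFI1B acts in erythroid and megakaryocyte cells.

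Promoter sequence is shown for the members whose windows in RefSeq (GRCh38.p14) bear on the results below. These are the 250 bases before a RefSeq start, on the coding strand and 5′ to 3′. Entries were present for 6 members (CEBPA, CEBPB, CEBPE, CEBPG, GFI1 and IRF8) with 11 starts in all. The motifs below were searched on both strands, and capitals mark a match. They were GAGGAA, the core that PU.1 prefers, TTNNGNAA, a relaxed C/EBP motif, and AGATAA or TGATAA, the GATA motif. CEBPB is the C/EBP gene with the highest level in every library, CEBPG is the member that fell, and the other windows hold a match.
CEBPB (chr20:50190580-50190829, plus strand): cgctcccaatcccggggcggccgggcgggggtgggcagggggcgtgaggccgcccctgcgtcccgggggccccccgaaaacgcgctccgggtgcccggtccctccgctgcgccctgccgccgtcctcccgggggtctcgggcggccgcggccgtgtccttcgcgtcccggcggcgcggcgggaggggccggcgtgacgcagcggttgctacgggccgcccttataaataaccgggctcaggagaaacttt
CEBPG (chr19:33373459-33373684, plus strand, cut where the first annotated exon starts): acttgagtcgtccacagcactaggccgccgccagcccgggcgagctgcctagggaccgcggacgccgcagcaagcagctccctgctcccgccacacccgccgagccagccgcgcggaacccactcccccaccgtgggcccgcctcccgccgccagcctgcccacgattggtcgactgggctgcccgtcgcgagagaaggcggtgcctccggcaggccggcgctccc
CEBPE (chr14:23119256-23119505, minus strand): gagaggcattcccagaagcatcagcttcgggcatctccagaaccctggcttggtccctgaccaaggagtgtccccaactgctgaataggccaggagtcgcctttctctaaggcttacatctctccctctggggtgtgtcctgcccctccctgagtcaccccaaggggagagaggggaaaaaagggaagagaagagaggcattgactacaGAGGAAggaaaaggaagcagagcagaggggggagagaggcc
GFI1 (chr1:92486100-92486349, minus strand): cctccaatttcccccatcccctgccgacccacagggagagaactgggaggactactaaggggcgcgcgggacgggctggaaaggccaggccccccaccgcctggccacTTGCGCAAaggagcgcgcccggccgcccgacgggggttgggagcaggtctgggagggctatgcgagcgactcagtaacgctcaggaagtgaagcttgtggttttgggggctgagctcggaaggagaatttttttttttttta

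The CEBPE window held 1 GAGGAA, 41 bases before the start, inside a purine-rich run. The GFI1 window held 1 TTNNGNAA, 142 bases before the start, and another GFI1 start had a GAGGAA 30 bases before it. In the window of that other start, only the first 110 bases come before an annotated GFI1 exon. The GAGGAA there lies after that exon begins. None of the motifs was found in the windows of CEBPA, CEBPB, CEBPG or IRF8, which says only that these letters are not in those 250 bases. Among all 35116 promoter windows of the same length, 23.6% held GAGGAA, 33.2% held TTNNGNAA and 14.6% held a GATA motif. GC content was 81.2% for CEBPA, 77.6% for the CEBPB window shown, and 76.0% and 79.2% for the windows of CEBPG, beside a median of 58.0% over all windows. The CEBPE window, at 57.2%, lay close to that median.

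The knockdown and the cell identity were checked first. LDB1 had 135.1 and 120.1 FPKM (a fragment level scaled to gene length and library depth) in the control libraries, compared with 10.2 and 9.47 FPKM after knockdown. Whole reads recovered from the FPKM came to between 16168368 and 18889605 per library. The depth by which the FPKM were scaled came out lower in each library, between 14746656 and 16182674. The gap was wider in the control group. In sh-NC, 18889605 and 17326303 reads stood against depths of 16182674 and 14746656. In sh-LDB1, 17209848 and 16168368 reads stood against depths of 16021191 and 15131588. The reason was not tested. The markers of the labelled line were low. The promyelocyte markers PRTN3, AZU1, CD33 and ELANE summed to 4.15 and 3.70 FPKM in sh-NC and to 11.7 and 9.88 FPKM in sh-LDB1, with ELANE at 0 in 3 of the 4 libraries and with 4 of the 6 listed markers in the table. The 7 erythroid markers, among them the embryonic globin gene HBZ, summed to 3219 and 3195 FPKM in sh-NC and to 247.1 and 234.0 FPKM in sh-LDB1. HBZ and HBA2 made up most of the sh-NC sums, with HBZ at 1543 and 1600 FPKM. Not all erythroid genes were high in sh-NC. HBB had 0.379 and 0.364 FPKM there, HBE1 1.35 and 1.34 FPKM, and AHSP 2.64 and 3.14 FPKM. The promyelocyte and erythroid markers listed go against the label. The study reports authentication of its lines by short tandem repeat profiling, and its supplement gives an exact match of an NB-4 sample to the reference profile. Whether that sample and the sequenced cells are the same stock is not stated. The cells are named here by their label only.

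After LDB1 knockdown, 3 members were higher and 1 was lower (limma on log2(FPKM + 1), Benjamini-Hochberg adjusted p below 0.05 and fold above 2 or below 0.5 on that scale). SPI1, CEBPB and CEBPD rose, CEBPG fell, CEBPE did not pass the test, and CEBPA and GFI1 were under 1 FPKM on average and were not tested. Over all 13300 genes tested, 9.5% were higher and 10.3% were lower past the same threshold. The counts were also 3 and 1 by the adjusted p alone, which 29.9% of all genes passed as higher and 37.4% as lower. Since so many genes moved, the share of members that changed describes these genes and sets them apart from no others. Tested against a fold of 2 itself (limma treat), the 3 rises held and the fall of CEBPG did not.

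**Figure D1:**
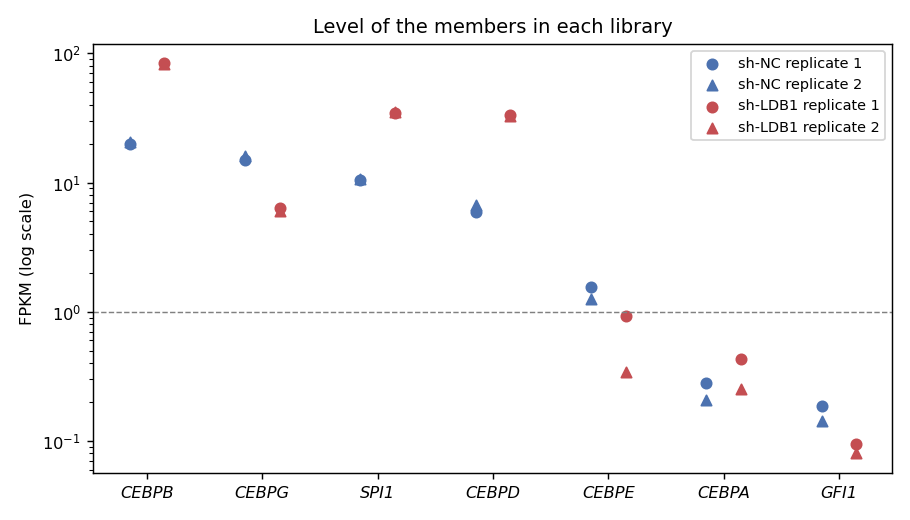
Level of the 7 measured members in each library, in FPKM on a log axis; circles are replicate 1, triangles replicate 2, blue sh-NC, red sh-LDB1, and the dashed line marks 1 FPKM. SPI1, CEBPB and CEBPD sit higher in both red libraries, CEBPG lower, and CEBPA overlaps between the groups.

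SPI1 (ENSG00000066336; chromosome 11, 47354860 to 47378547, minus strand, 5 exons in the canonical transcript, GRCh38) stood at 10.5 and 10.7 FPKM in both controls and reached 34.3 and 35.3 FPKM after knockdown. Both knockdown libraries were above both controls, as they were for 38.3% of all genes tested, and the replicates within a group lay within 1 FPKM of each other. The mean went from 10.6 ± 0.123 to 34.8 ± 0.659 FPKM (SD, n = 2 each), a 3.27-fold rise. On the log2 scale SPI1 rose by 1.62 (standard error 0.0442, 95% interval 1.5 to 1.74; limma, adjusted p = 8.31e-05). The values rested on 353 and 327 reads in sh-NC and on 1138 and 1104 reads in sh-LDB1. Of all genes tested, 3.10% had a larger log2 rise. SPI1 was also one of the candidate genes that the study picked with these libraries in hand, so its rise is not independent evidence.

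CEBPB and CEBPD, the stress-induced C/EBP genes, rose further. CEBPB (ENSG00000172216; chromosome 20, 50190830 to 50192668, plus strand, 1 exon) stood at 19.9 and 20.8 FPKM in both controls and reached 83.5 and 82.6 FPKM after knockdown. The groups were far apart, with means of 20.4 ± 0.588 and 83.1 ± 0.638 FPKM (SD, n = 2 each), a 4.08-fold difference. It rose by 1.98 on the log2 scale (standard error 0.0428, 95% interval 1.86 to 2.09; limma, adjusted p = 6.93e-05), from 599 to 2617 reads per library. The antisense gene CEBPB-AS1 overlaps CEBPB and was at 0.21, 0.41, 0.236 and 0.424 FPKM in sh-NC replicates 1 and 2 and sh-LDB1 replicates 1 and 2. Whether the counting used strand is not given in the sources used here, so reads of the overlap cannot be told apart.

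CEBPD (ENSG00000221869; chromosome 8, 47736913 to 47738164, minus strand, 1 exon) stood at 5.90 and 6.66 FPKM in both controls and reached 33.4 and 32.7 FPKM after knockdown. Its mean rose 5.26-fold, from 6.28 ± 0.538 to 33.0 ± 0.50 FPKM (SD, n = 2 each). It rose by 2.23 on the log2 scale (standard error 0.0678, 95% interval 2.04 to 2.41; limma, adjusted p = 9.4e-05), from 208 and 214 reads in sh-NC and 1165 and 1077 reads in sh-LDB1. Of all genes tested, 0.97% had a larger log2 rise than CEBPD and 1.53% a larger one than CEBPB.

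CEBPG, the member that can dampen the others, moved the opposite way. CEBPG (ENSG00000153879; chromosome 19, 33373685 to 33382686, plus strand, 2 exons in the canonical transcript) stood at 14.9 and 16.1 FPKM in the controls and dropped to 6.37 and 6.07 FPKM after knockdown. The groups did not overlap, and both knockdown libraries were also below both controls for 46.3% of all genes tested. The mean of 15.5 ± 0.821 FPKM in sh-NC was 2.49 times the mean of 6.22 ± 0.212 FPKM in sh-LDB1 (SD, n = 2 each). Its log2 fold change was -1.19 (standard error 0.0619, 95% interval -1.36 to -1.03; limma, adjusted p = 0.000212), from 405 to 1065 reads per library. The interval reaches close to a fold of 0.5, and treat gave CEBPG an unadjusted p of 0.0158 and an adjusted p of 0.143. Of all genes tested, 7.05% had a larger log2 fall.

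CEBPE, the late granulocyte factor, was scarce. CEBPE (ENSG00000092067; chromosome 14, 23117036 to 23120256, minus strand, 2 exons in the canonical transcript) stood at 1.55 and 1.27 FPKM in the sh-NC libraries, compared with 0.924 and 0.34 FPKM after knockdown. Both knockdown libraries lay below both controls, as they did for 46.3% of all genes tested, but the knockdown replicates were far apart. The estimate of -0.58 on the log2 scale had a standard error of 0.229 and a 95% interval of -1.20 to 0.03 (limma, adjusted p = 0.081), which did not pass. The values rested on 39 and 29 reads in sh-NC and on 23 and 8 reads in sh-LDB1, at the shortest gene length that gives whole reads. On those reads, limma voom gave a log2 fold change of -1.27 (adjusted p = 0.0267), which passed the threshold, and voom over all genes with no filter gave -1.27 (adjusted p = 0.0693), which did not.

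CEBPA and GFI1 were under 1 FPKM in every library. CEBPA (ENSG00000245848; chromosome 19, 33299934 to 33302534, minus strand, 1 exon) stood at 0.282 and 0.206 FPKM in sh-NC, compared with 0.427 and 0.251 FPKM in sh-LDB1, from 8 to 18 reads, and the groups overlapped. Fitted with no filter, its log2 fold change was 0.10 (limma, adjusted p = 0.485). A change of CEBPA was not detectable at this depth. GFI1 (ENSG00000162676; chromosome 1, 92473043 to 92486925, minus strand, 7 exons in the canonical transcript) stood at 0.187 and 0.144 FPKM in sh-NC, compared with 0.0945 and 0.0801 FPKM in sh-LDB1. Both knockdown libraries were below both controls, as they were for 15.6% of all genes under the filter, and the fit with no filter gave a log2 fold change of -0.10 (limma, adjusted p = 0.188). Its reads were 10, 7, 5 and 4 or a common multiple of these, since the gene length the authors used is not known.

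**Figure D2:**
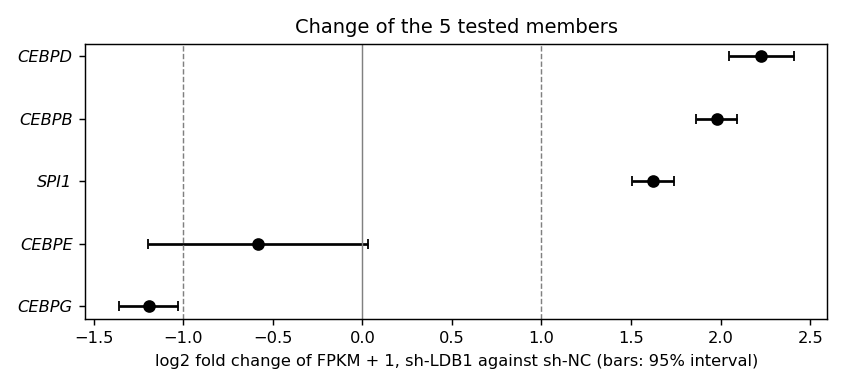
Log2 fold change of FPKM + 1 in sh-LDB1 against sh-NC for the 5 tested members; points are limma estimates, bars 95% intervals, and dashed lines mark a fold of 2 and of 0.5. The intervals of SPI1, CEBPB and CEBPD lie above 1, that of CEBPG lies just under -1, and that of CEBPE (-1.20 to 0.03) includes 0.

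FPKM is a level per length, so the members can be set beside each other. In sh-NC the order from the highest in the deposited FPKM was CEBPB, CEBPG, SPI1, CEBPD, CEBPE, CEBPA and GFI1. The libraries of each pair of neighbours did not overlap there. In sh-LDB1 it was CEBPB, SPI1, CEBPD, CEBPG, CEBPE, CEBPA and GFI1. There the libraries of CEBPE and CEBPA overlapped, and SPI1 was only 1.05 times CEBPD. CEBPG dropped from the second to the fourth place. SPI1 stood above 83.8% and 83.9% of all genes in the table in sh-NC and above 95.5% and 95.6% in sh-LDB1.

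The place of CEBPD depends on its length. Its FPKM implied a gene of 2178 bases, while GENCODE release 44 gives 1252 bases, and the ratio for the other tested members was between 0.881 and 1.09. On the annotated lengths CEBPD had 10.9 ± 0.937 FPKM and SPI1 10.8 ± 0.125 FPKM in sh-NC, which did not differ beyond their spread. In sh-LDB1 CEBPD then had 57.5 ± 0.870 FPKM and SPI1 35.3 ± 0.669 FPKM (SD, n = 2 each), which turns their order. The order of CEBPA and GFI1 in sh-NC is open too, since the length used for GFI1 is not known. If that length was 6602 bases, GFI1 had 0.194 ± 0.0359 FPKM and CEBPA 0.247 ± 0.0541 FPKM on the annotated lengths in sh-NC. The ratio of a gene's mean FPKM between groups does not depend on its length, while a log2 fold change with a pseudocount does so slightly.

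The make-up of the C/EBP transcripts shifted with these changes. Summed over the 5 measured C/EBP genes, the level went from 43.8 ± 1.69 FPKM in sh-NC to 123.3 ± 1.89 FPKM in sh-LDB1 (SD, n = 2 each). CEBPG made up 35.0% and 35.7% of this sum in the sh-NC libraries and 5.11% and 4.98% in the sh-LDB1 libraries. CEBPB went from 46.8% and 46.2% to 67.0% and 67.7%, and CEBPD from 13.9% and 14.8% to 26.8% in both. CEBPE went from 3.64% and 2.81% to 0.741% and 0.279%, and CEBPA went from a mean share of 0.56% to 0.274%. CEBPB was 1.31 times CEBPG in sh-NC and 13.4 times CEBPG in sh-LDB1. With annotated lengths the mean share of CEBPD was 21.4% and 37.4%, and that of CEBPG 33.1% and 4.41%. These shares are a description, and no test was run on them.

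**Figure D3:**
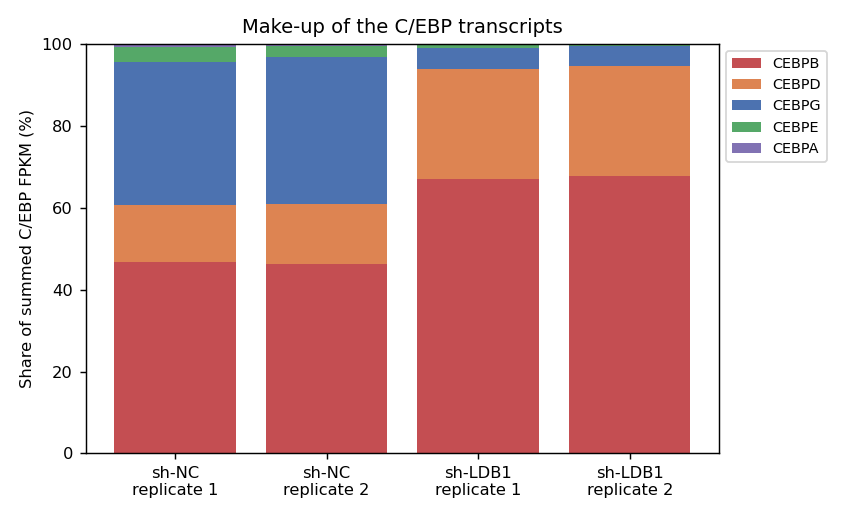
Share of each of the 5 C/EBP genes in their summed FPKM (%), 1 stacked bar for each library. CEBPG takes 35.0% and 35.7% of the sh-NC bars and 5.11% and 4.98% of the sh-LDB1 bars, and CEBPB and CEBPD take most of the sh-LDB1 bars.

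SPI1 was then set beside its known antagonist. GATA1 fell from 226.7 and 222.2 FPKM to 63.3 and 61.1 FPKM (log2 fold change -1.83, limma adjusted p = 7.03e-05). GATA1 was thus 21.5 and 20.7 times SPI1 in the sh-NC libraries and 1.84 and 1.73 times SPI1 in the sh-LDB1 libraries. The ratio of SPI1 to GATA1 was 11.8 times higher after knockdown, and GATA1 had the higher FPKM of the pair in all 4 libraries. GFI1B, the erythroid paralogue of GFI1, fell from 31.7 and 34.5 FPKM to 4.71 and 4.92 FPKM. It exceeded GFI1 by at least 49.9 times in every library. In bulk RNA, a smaller number of cells of a type and less RNA in each cell cannot be told apart. Of the 20 erythroid genes, 18 were tested and 17 were lower past the threshold, beside 10.3% of all genes tested. The median log2 fold change of these 18 genes was -2.95, against -0.08 over all genes tested. The part of the erythroid genes in the levels of the members was not tested.

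**Figure D4:**
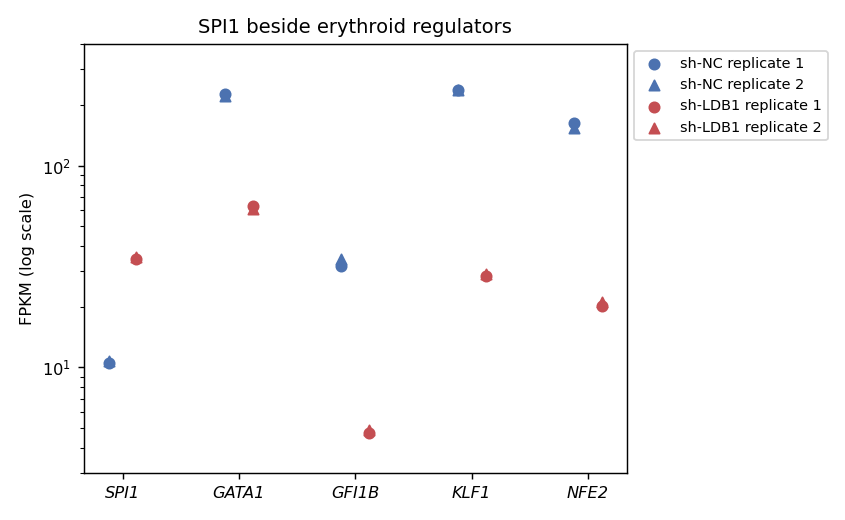
FPKM on a log axis for SPI1 and the erythroid regulators GATA1, GFI1B, KLF1 and NFE2 in each library; circles are replicate 1, triangles replicate 2, blue sh-NC, red sh-LDB1. SPI1 is higher in both red libraries and the other genes lower, and GATA1 (63.3 and 61.1 FPKM in red) stays above SPI1 (34.3 and 35.3 FPKM).

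Genes that PU.1 and C/EBP proteins are known to regulate in myeloid cells were listed next. Of 35 such genes, 30 were in the table and only 12 reached 1 FPKM on average. Of these 12, 7 were higher and 0 were lower past the threshold, and 9 were higher and 2 lower by the adjusted p alone (median log2 fold change 1.44). A gene could reach the filter through the knockdown libraries alone, so these counts and this median are no measure of the whole list. Of the 18 genes under the filter, both knockdown libraries were above both controls for 12 and below both for 2. Among all 15112 genes under the filter the shares were 33.4% above and 15.6% below. Among all genes tested, 9.5% were higher and 10.3% lower past the threshold, and 29.9% and 37.4% by the adjusted p alone.

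Values are given for the listed genes with the smallest adjusted p. TYROBP, the adaptor of activating receptors on myeloid cells, had 0 and 0.0748 FPKM in the control libraries, from 0 and 1 reads, and 14.0 and 16.4 FPKM after knockdown. ITGAM, the integrin chain CD11b, went from 0.0217 and 0.0596 FPKM to 4.89 and 4.94 FPKM. Both rose past the threshold, but with so few reads in the controls the size of their fold depends on the pseudocount. CSF3R, the receptor of granulocyte colony-stimulating factor, had 1.10 and 1.08 FPKM in sh-NC and 9.46 and 8.49 FPKM in sh-LDB1 (log2 fold change 2.25, limma adjusted p = 0.000117).

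CTSS, a lysosomal protease of antigen-presenting cells, had 0.906 and 1.11 FPKM in sh-NC and 9.43 and 9.44 FPKM in sh-LDB1. LYZ, which encodes lysozyme, had 5.85 and 5.61 FPKM in sh-NC and 19.3 and 19.1 FPKM in sh-LDB1. Both rose past the threshold (log2 fold changes 2.38 and 1.59), as did PRTN3, a primary granule protease, and NCF4, a subunit of the NADPH oxidase. NCF4 had 0 and 4 reads in sh-NC and reached the filter through the knockdown libraries alone, as did TYROBP and ITGAM. BTK, a kinase of myeloid and B cells, was lower by the adjusted p alone (log2 fold change -0.69, limma adjusted p = 0.000655). The monocyte markers CD14, CSF1R, CD68, ITGAM and FCGR1A summed to 0.387 and 0.324 FPKM in sh-NC and to 5.73 and 5.70 FPKM in sh-LDB1, nearly all of it ITGAM, and CD68 was listed at 0 in both knockdown libraries. The lymphoid markers, 4 of 6 in the table, summed to 24.1 and 21.3 FPKM in sh-NC and to 44.9 and 47.7 FPKM in sh-LDB1, mostly CD3D, which was higher by the adjusted p alone (log2 fold change 0.98, limma adjusted p = 0.000783). The megakaryocyte markers, 5 of 6 in the table, summed to between 2.97 and 4.38 FPKM in all libraries, with PF4 at 0 in 3 of them. The part of these markers in the results was not tested.

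Partners and regulators of the members in the myeloid network moved both ways. Of 20 genes, 17 were tested, with 4 higher and 2 lower past the threshold, and 7 higher and 10 lower by the adjusted p alone (median log2 fold change -0.48). Over all genes tested, 9.5% were higher and 10.3% lower past the threshold, and 29.9% and 37.4% by the adjusted p alone. The list was not tested against these shares. JUN, an AP-1 subunit that can pair with C/EBP proteins and act as a coactivator of PU.1, went from 16.5 and 15.2 FPKM to 101.4 and 102.2 FPKM (log2 fold change 2.61, limma adjusted p = 6.77e-05). NFIL3, a basic leucine zipper repressor, rose by 1.31 on the log2 scale. TRIB1, a pseudokinase that directs C/EBPα to degradation, rose by 1.34. CBFB, the partner of RUNX1, was the fourth that rose.

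The genes that fell past the threshold were MYB and GFI1B. MYB, a progenitor factor, went from 24.5 and 25.3 FPKM to 3.41 and 3.07 FPKM (log2 fold change -2.61, limma adjusted p = 7.46e-05). GFI1B had a log2 fold change of -2.55. KDM1A, the histone demethylase that GFI1 and GFI1B recruit, had 63.6 and 62.9 FPKM in sh-NC and 31.9 and 32.9 FPKM in sh-LDB1, a log2 fold change of -0.94 that passed the adjusted p alone.

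The relatives of the members, other C/EBP-like, PU.1-like and interferon regulatory factors, were also counted. Of 13 genes, 7 were tested, and only IRF7 was past the threshold. IRF7, which drives interferon genes, had 3.08 and 2.5 FPKM in sh-NC and 21.6 and 19.2 FPKM in sh-LDB1 (log2 fold change 2.5, limma adjusted p = 0.000146). By the adjusted p alone 5 were higher and 2 lower (median 0.37). The shares over all genes tested were 9.5% higher and 10.3% lower past the threshold, and 29.9% and 37.4% by the adjusted p alone. IRF1 had a log2 fold change of 0.89, IRF2 of 0.65 and DDIT3, the stress-induced C/EBP homologue CHOP, of 0.37. ATF5 (-0.86) and ATF4 (-0.42), basic leucine zipper factors of the stress response, were the lower genes. ATF4 is a known partner of C/EBPγ, and its level was 138.1, 133.5, 99.4 and 102.7 FPKM in sh-NC replicates 1 and 2 and sh-LDB1 replicates 1 and 2.

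**Figure D5:**
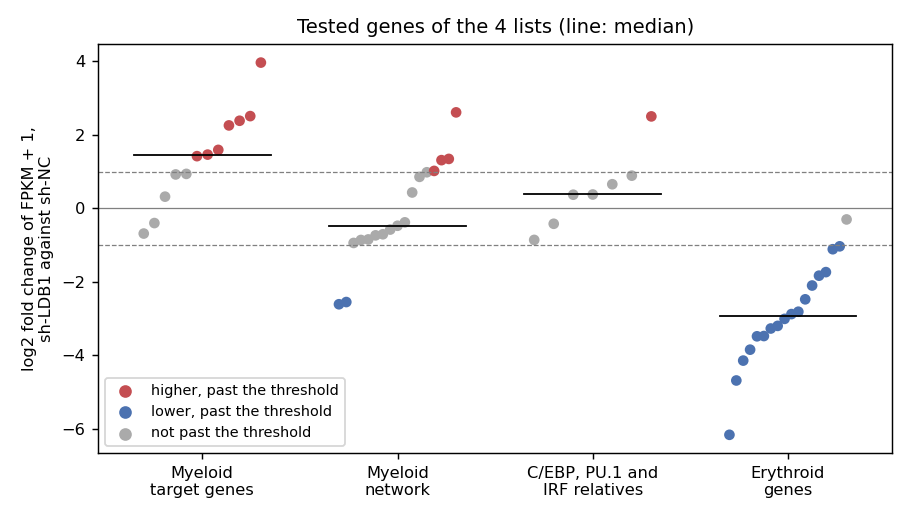
Log2 fold change of FPKM + 1 in sh-LDB1 against sh-NC for the tested genes of 4 lists (12 myeloid target, 17 myeloid network, 7 relatives and 18 erythroid genes); red points are higher and blue points lower past the threshold, grey points are not, black lines are medians and dashed lines a fold of 2 and of 0.5. The median is 1.44 for the myeloid targets and -2.95 for the erythroid genes. Some myeloid targets reached the filter through the knockdown libraries alone, so their median is no measure of the whole list.

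The genes whose profile over the 4 libraries lay nearest to each tested member were sought among 4835 other genes of at least 10 FPKM on average. Nearness was the root mean square distance between centred log2(FPKM + 1) values. For SPI1 they were CTSD (0.0192) and ALKBH5 (0.0216), for CEBPB DUSP3 (0.0137) and TPRG1L (0.0148), and for CEBPD PPP1R13L (0.0282) and HERPUD1 (0.0297). CEBPG was nearest to SUGP2 (0.00751) and PPA1 (0.011). CEBPE was nearest to RPS29 (0.0548) and MIR1254-1 (0.0845), at distances larger than those of the other members. With 4 libraries in 2 groups, such likeness mostly records a change of the same size.

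The tested genes that flank the members were examined after the values had been seen. CEBPA and CEBPG lie 71150 bases apart on chromosome 19, and of this pair CEBPG fell while PEPD, which follows it, had a log2 fold change of 0.66 and WDR88, on the other side of CEBPA, rose by 1.21. Beside CEBPD lie SPIDR, 607 bases away, with a log2 fold change of -0.93, and PRKDC, with -1.75, so CEBPD rose between neighbours that were lower. Beside CEBPE, SLC7A8 had -2.20 and C14orf119 0.30. Beside SPI1, SLC39A13 rose by 1.93 and MADD had 0.54, and beside CEBPB, LINC01275 rose by 1.43 and PTPN1 had 0.33. The neighbours of GFI1, RPAP2 and EVI5, had log2 fold changes of 0.08 and 0.92.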

How the data were processed

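Per the labels, total RNA (1 µg) was made into libraries with the Illumina TruSeq RNA Sample Prep kit. The submitters' processing notes name HISAT2 2.0.5 and hg38. Which annotation and counting tool were used, and whether strand was, is not given in the sources used here, and DESeq2 was the authors' test. The authors deposited 1 table of FPKM with 28412 genes and 4 libraries, not pooled, and 0 columns belonged to no sample.

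Groups were taken from the labels. The 13300 genes that averaged 1 FPKM or more were compared, 2 libraries against 2, as log2(FPKM + 1) with limma 3.58.1 in R 4.3.3 (eBayes with trend, no replicate block) and Benjamini-Hochberg adjustment over all genes tested. Folds on this scale understate the change of low genes. Calls needed an adjusted p below 0.05 and a fold above 2 or below 0.5. Fold changes of means had no pseudocount.

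Reads were recovered from the FPKM as whole multiples of what 1 read is worth (tolerance 0.0002 reads, GENCODE release 44 lengths), for 98.9% of the 28193 genes with a length. They cover counting error only. These reads served for depth, for the read numbers given, for voom and for the simulated data. The gene lengths found with them served for the simulated data and for the levels on annotated lengths.

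In simulated data for this comparison, with 12849 genes past the filter, 192 of 200 changed genes passed the filter and 154 were recovered with the right sign, and 14 of 12657 unchanged genes passed the threshold. The simulation gave all genes the same fixed dispersion and changed few genes, all above a floor of reads. In the real data many more genes moved, so these rates need not hold there. Promoters came from RefSeq (GRCh38.p14), and the other positions from GENCODE release 44. Python 3.11.15, numpy 2.4.6, pandas 2.3.3 and matplotlib 3.10.9 did the rest.

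The members and lists were chosen with earlier results of these data known. Named were the members, LDB1, GATA1, marker genes, list genes past the threshold and the 2 nearest profiles of each tested member. At most 6 genes of a list, by smallest adjusted p, were named with values, and these could fall short of the threshold. CEBPB-AS1, HBB, HBE1, AHSP, the reads of NCF4 and the flanking genes were added after their values were seen. Alternatives were other pseudocounts, filters, scalings, prior variance, a replicate block, leaving out each library, voom, no fold threshold and treat.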

Additional observations from a re-analysis of the deposited data

How the results depend on the processing

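SPI1, CEBPB and CEBPD kept direction and call in the 13 alternatives with a test and under treat, and CEBPG in those 13 but not under treat, with log2 fold changes of 1.60 to 1.79, 1.95 to 2.15, 2.15 to 2.40 and -1.32 to -1.04. CEBPE ranged from -1.30 to -0.32. Of these 13 it passed the full threshold under voom on recovered reads (-1.27), where 2 members were lower, and it passed the adjusted p alone also without sh-LDB1 replicate 1 (-0.84, limma adjusted p = 0.0306). Voom with no filter, chosen after seeing the data, did not pass (adjusted p = 0.0693). Under treat against a fold of 2, chosen after seeing the data, 0 members were lower, and 568 genes were higher and 581 lower over all. With no fold threshold, 2 myeloid targets were lower, 7 network genes higher and 10 lower, 5 relatives higher and 2 lower, and 3983 genes higher and 4978 lower over all. Among the relatives, 2 were higher under pseudocounts of 0.1 and 0.01, equal summed FPKM and voom (IRF1 with IRF7), and also 2 with no filter or a filter on each library of 1 group. In the same list 1 was lower, ATF5, under both pseudocounts and voom, and leaving out each library gave 0 to 1, with ATF5 called without sh-NC replicate 2. Leaving out each library left the CEBPE log2 fold change between -0.84 and -0.32, and it was -0.32 without sh-LDB1 replicate 2. With a lone library in a group, that library is assumed to vary like the other group. Equal summed FPKM moved the median of all genes by 0.147 (log2) and, among genes past the threshold, the lower ones from 52.0% to 38.5%. The equal upper quartile gave 42.8%. The cause of these shifts was not tested.

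Same-numbered libraries did not deviate together over the genes tested (correlation of deviations 0.0196). This cannot show whether they were prepared in pairs, and the labels do not say. With the replicate block, the log2 fold changes were unchanged and the adjusted p of SPI1 was 0.000425 (limma). The block gave 1274 higher and 1386 lower genes over all, against 1264 and 1371, and 3 higher and 1 lower members. Depth limits CEBPE, CEBPA and GFI1, which rest on few reads.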
